A study of Homo sapiens with 3 samples.

Results

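The transcripts described here are those of 10 genes of the microRNA pathway, 8 that process microRNAs or carry out their action (DROSHA, DGCR8, XPO5, DICER1, AGO1, AGO2, TNRC6A and TNRC6B) and 2 that host microRNA clusters (MIR17HG and MCM7), out of 10872 Ensembl genes with a replicate 2 cluster. They were chosen by name, with earlier results of these data known. A gene's clusters in replicate 2 are those that the peak caller named with its Ensembl identifier, and its replicate 1 clusters and reproducible peaks are those on the same strand within the span from the first to the last of these clusters. All 10 genes had replicate 2 clusters, 299 of 119066 in all, and their spans held 304 of the 137095 replicate 1 clusters and 6 of the 866 reproducible peaks. RBM17, a splicing factor, was immunoprecipitated by eCLIP from the chronic myelogenous leukemia cell line K562, with no treatment or genetic change named in the labels. In eCLIP, ultraviolet light joins a protein to the RNA that it touches, and the RNA fragments recovered with the protein are sequenced. The data comprise 2 eCLIP replicates made with a mixture of RBM17 antibodies from 20000000 cells irradiated at 254 nm with 400 mJ/cm2, and 1 size-matched input. The input was 2% of the same material, taken before washing and cut from the same gel region of 50 to 125 kDa. A cluster is a stretch of RNA with more reads than its transcript's background, and a log2 fold compares it with the input.

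MicroRNAs are cut from hairpins in long primary transcripts by the nuclear Microprocessor, in which DROSHA is the ribonuclease and DGCR8 its RNA-binding partner. XPO5 carries the hairpin to the cytoplasm, the ribonuclease DICER1 removes its loop, and 1 strand is loaded into an argonaute such as AGO1 or AGO2, which pairs with target mRNAs through the seed of the microRNA. TNRC6 proteins bind argonautes and recruit the enzymes that shorten the poly(A) tail of the target. The Microprocessor also cleaves hairpins in the DGCR8 mRNA itself, a known feedback on its own level.

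The microRNAs of the 2 hosts belong to related families, and they are shown because the same seeds recur in both transcripts. The sequences are from RefSeq (GRCh38.p14), written 5′ to 3′ with the seed, bases 2 to 8, in capitals, and 1 arm is given for each hairpin. All 9 names matched an entry. The arms from MIR17HG lie on the + strand of chromosome 13 between 91350618 and 91351382.
hsa-miR-17-5p: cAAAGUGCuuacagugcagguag
hsa-miR-20a-5p: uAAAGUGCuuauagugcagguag
hsa-miR-18a-5p: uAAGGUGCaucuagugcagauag
hsa-miR-19a-3p: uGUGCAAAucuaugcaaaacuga
hsa-miR-19b-3p: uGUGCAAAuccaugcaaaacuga
hsa-miR-92a-3p: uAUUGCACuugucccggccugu
The arms from MCM7 lie on the − strand of chromosome 7 between 100093571 and 100094063.
hsa-miR-106b-5p: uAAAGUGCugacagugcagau
hsa-miR-93-5p: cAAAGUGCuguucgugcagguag
hsa-miR-25-3p: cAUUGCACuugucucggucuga

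Of the 5′ arms, miR-17, miR-20a, miR-106b and miR-93 carry the seed AAAGUGC, so that 4 microRNAs of the 2 hosts share it. The seed AUUGCAC is common to miR-92a and miR-25, GUGCAAA to miR-19a and miR-19b, and AAGGUGC occurs in miR-18a alone among these 9. In GENCODE v44 (hg38), the 6 hairpins of MIR17HG lie within intron 3 of its canonical transcript and within an exon of 3 of its 16 transcripts. The hairpins of miR-106b and miR-25 lie in intron 13 of the canonical MCM7 transcript. These are hg38 positions, whereas all eCLIP positions are in hg19, and neither was converted to the other.

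Values of the replicates differ in kind. For replicate 1 the clusters carry a comparison with the input, as a −log10 p and a log2 fold, but no reads, and the depth of that library is unknown. For replicate 2 they carry reads and the p of the peak caller, without reference to the input. Its clusters held 3 to 8215 reads with a median of 5, and 1374221 reads when every entry was counted. The reproducible peaks have 1 log2 fold for both replicates together and 1 −log10 p. No fold thus has a replicate error, and no test between groups was possible. The −log10 p equalled that of the overlapping replicate 1 cluster at a DGCR8 peak (7.15) and the MIR17HG peaks (6.94 and 4.14). It is thus not read here as evidence from both replicates. K562 is an erythroid and megakaryocytic leukemia line, and all 11 erythroid and megakaryocytic markers examined had replicate 2 clusters, with 4809 reads in total. Of these reads, HBG2 held 1553 and HBE1 1142, and any interval listed under both genes would be counted for each. Of the markers of other blood cells, LYZ had a cluster with 4 reads, and the defining lymphoid and myeloid markers CD3E, MS4A1, CD79A, CD14 and MPO had none. Of 3 epithelial markers, EPCAM had 11 reads and CDH1 134.

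Among the 10 transcripts, RBM17 eCLIP reads of replicate 2 were concentrated on DGCR8, MIR17HG and MCM7, and reproducible peaks were found on DGCR8 and MIR17HG. These reads are not compared with the input, so they do not separate binding from the amount of RNA. MIR17HG held 1423 reads in 30 replicate 2 clusters, DGCR8 1163 reads in 24 and MCM7 617 in 20. Together they carried 71.7% of the 4469 cluster reads of the 10 genes. The 7 other genes held between 27 reads (DICER1) and 306 reads (XPO5) each, and none of their clusters exceeded 19 reads. The 3 leading genes were also the highest per length, a scale of reads per kb of the span that the clusters cover. MIR17HG had 218 reads per kb, MCM7 75.2 and DGCR8 50.7, at the 95.2, 83.4 and 79.3 percentile of all genes with clusters. By total reads they lay at the 99.6, 98.2 and 99.4 percentile. A gene with 1 cluster or few has a short span and so a high value per kb, which limits these percentiles. A long span lowers the value in turn. DROSHA, with 40 clusters over 129906 bp, lay at the 91.5 percentile by reads and at 30.8 per kb. XPO5 followed with 6.11 reads per kb, AGO1 with 4.64, TNRC6A with 2.49, DROSHA with 1.71, AGO2 with 1.08, DICER1 with 0.611 and TNRC6B with 0.367. Exact Poisson 95% intervals of the read totals, which cover counting error in this 1 library only, overlapped among AGO1 (276, interval 244 to 311), TNRC6A (229, interval 200.3 to 261) and DROSHA (222, interval 194 to 253). That of XPO5 (306, interval 273 to 342) overlapped the interval of AGO1. Those of AGO2 (102, interval 83.2 to 124) and TNRC6B (104, interval 85.0 to 126) overlapped as well, whereas that of DICER1 (27, interval 17.8 to 39.3) lay below all others.

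**Figure D1:**
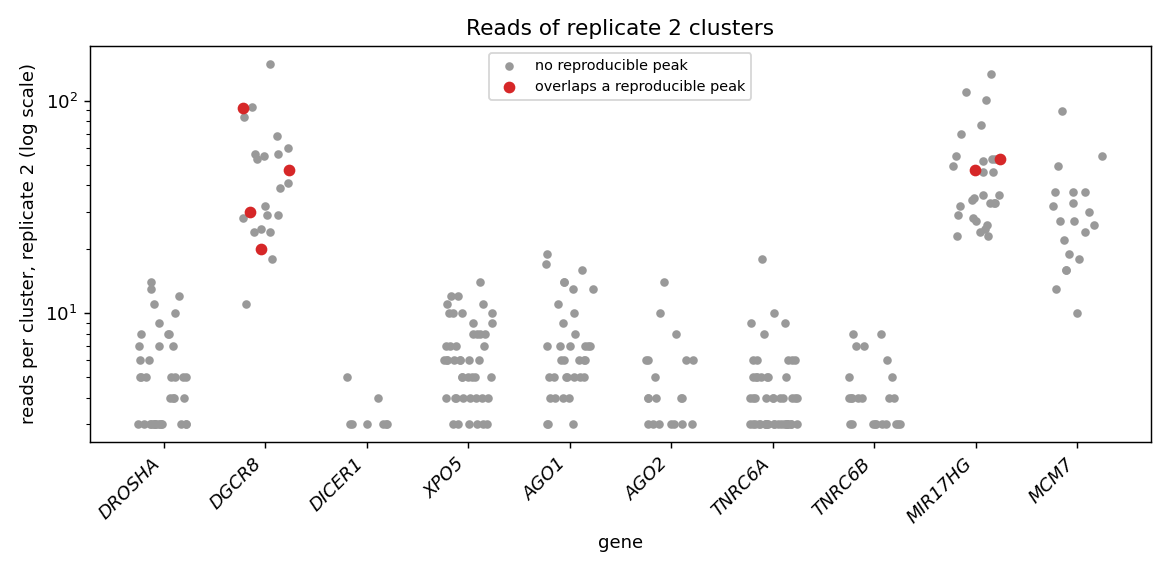
Reads per replicate 2 cluster (log scale) for each of the 10 genes, with 1 point per cluster and clusters that overlap a reproducible peak in red. The clusters of DGCR8, MIR17HG and MCM7 hold 10 to 149 reads and those of the other genes 3 to 19, and the red points are not the highest of their genes.

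A reproducible peak was present in 2 of the 10 genes (20%), against 4.07% of all genes with a replicate 2 cluster. Such peaks are commoner in genes with many reads. Among the genes with at least 100 replicate 2 reads the share was 16.3%, and 2 of the 9 transcripts that reach this number, all but DICER1, had a peak. With 10 genes this count is a description and does not set them apart from other genes of that depth. The log2 folds of the 6 peaks over the input lay between 3.07 and 3.81 for both replicates together, from the 3.12 to the 50.1 percentile of all 866 peaks, whose median was 3.80. None reached a log2 fold of 4 (0 of 6).

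DGCR8 carried 4 of the 6 peaks, on the + strand of chromosome 22. The first lay at 20077317 to 20077411 (hg19), with a log2 fold of 3.07, a −log10 p of 6.43, and 92 reads in replicate 2. The second lay at 20077642 to 20077695, with a log2 fold of 3.45, a −log10 p of 4.53 and 47 reads. The third and strongest, at 20079569 to 20079644, had a log2 fold of 3.77, a −log10 p of 7.15 and 20 reads. The fourth lay at 20094546 to 20094575, near the other end of the span, with a log2 fold of 3.24, a −log10 p of 5.59 and 30 reads. Replicate 1 had 1 cluster at each peak, with log2 folds of 2.39, 2.65, 3.56 and 2.73 in the same order, and had the same interval as the peak at the third alone. A log2 fold of at least 3 in replicate 1 was thus reached at 1 of the 4 peaks, while over all reproducible peaks 91.9% had an overlapping replicate 1 cluster of that size. At all 4 peaks the log2 fold for both replicates together was the higher one, as it was at 35.7% of all reproducible peaks. The paper kept only peaks with a log2 fold above 3, and the lowest of the 866 was 3.01. Where replicate 1 had 2.39, 2.65 or 2.73, the higher value was thus set by this cutoff and says nothing about replicate 2. Only at the peak with 3.56 in replicate 1 and 3.77 for both together did the cutoff not fix the order.

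The reads and the enrichment of DGCR8 had different maxima. When the span of each gene was cut into 3 segments of equal length, the 19 clusters in the 5′ segment of DGCR8 held 86.1% of its replicate 2 reads. The largest cluster, at 20073476 to 20073592, had 149 reads (12.8% of the gene), and replicate 1 showed a log2 fold of 0.57 with a −log10 p of 0.884 in the cluster there. The next, at 20073203 to 20073284 with 93 reads, overlapped a replicate 1 cluster with a log2 fold of -0.57. Of the 10 clusters of DGCR8 with the most reads, 9 overlapped a replicate 1 cluster and 1 overlapped a reproducible peak, and the highest replicate 1 log2 fold at these 10 was 2.39. The largest replicate 1 log2 fold of the gene was 4.28, at 20074491 to 20074512 (−log10 p 4.44), where replicate 2 had no cluster. Over the whole gene, the 28 replicate 1 clusters had a median log2 fold of 1.89, the lowest being -0.57. GENCODE v44 places the hairpin of miR-3618 in exon 2 of the canonical DGCR8 transcript, and that of miR-1306 is also annotated in the gene.

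**Figure D2:**
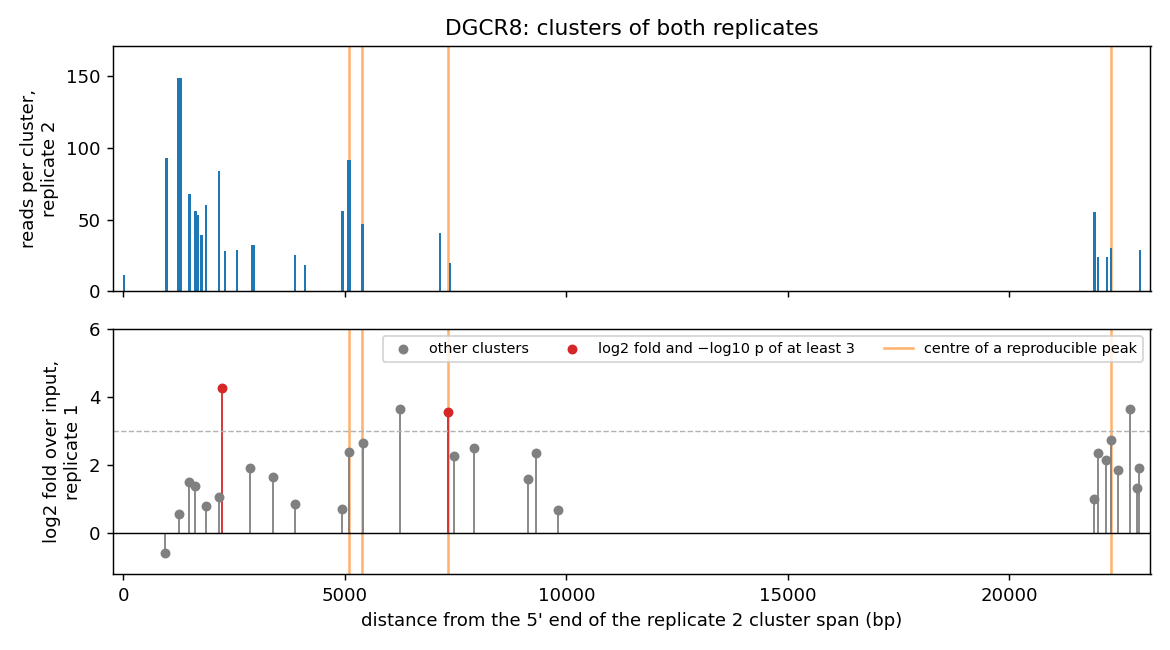
Clusters along DGCR8 by distance in bp from the 5′ end of the span of its replicate 2 clusters, as reads per cluster in replicate 2 (top) and log2 fold over the input in replicate 1 (bottom), where red marks a log2 fold and −log10 p of at least 3 and the dashed line a log2 fold of 3. Orange lines mark the 4 reproducible peaks, which stand away from the tall 5′ clusters of up to 149 reads.

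DROSHA, the ribonuclease partner of DGCR8, had no reproducible peak. Its 40 replicate 2 clusters were small, with 3 to 14 reads and a median of 5, and were spread over the gene, with 43.7% of the reads in the 5′ segment of the span, 28.4% in the middle and 27.9% in the 3′ segment. Its 31 replicate 1 clusters had a median log2 fold of 0.93. The highest, at 31515095 to 31515154 on the − strand of chromosome 5, had a log2 fold of 3.89 and a −log10 p of 3.26, and it overlapped a replicate 2 cluster of 13 reads, the second largest of DROSHA. This was the only cluster past both thresholds outside DGCR8 and MIR17HG, among the 10 genes, with a counterpart in replicate 2. It is not in the authors' list of reproducible peaks. The next highest replicate 1 cluster of DROSHA had a log2 fold of 2.19.

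XPO5 and DICER1, which act after the Microprocessor, differed in depth. XPO5, the exporter, held 306 reads in 47 replicate 2 clusters of 3 to 14 reads. Its 33 replicate 1 clusters had a median log2 fold of 1.36 and none was below 0. Among them, 2 passed a log2 fold of 3 and a −log10 p of 3. The first, at 43495750 to 43495868 on the − strand of chromosome 6, had a log2 fold of 3.42 and a −log10 p of 9.17, the highest −log10 p in any of the 10 genes. The second, from 43528662 to 43528684, reached a log2 fold of 4.00 with a −log10 p of 3.55. Neither overlapped a replicate 2 cluster, and XPO5 had no reproducible peak. DICER1, the cytoplasmic ribonuclease, had the fewest reads of the 10 genes, with 27 reads in 8 clusters of at most 5 reads and 11 replicate 1 clusters. The highest log2 fold of DICER1 in replicate 1 was 2.51 and its highest −log10 p 0.981, so that no cluster reached 3 on either scale. Whether this goes with low depth was not tested, as the depth of replicate 1 is unknown.

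The effector transcripts carried no reproducible peak and fewer reads than DGCR8, MIR17HG and MCM7, although AGO1 lay at the 93.8 and AGO2 at the 78.6 percentile of reads over all genes with clusters. AGO1 had 36 replicate 2 clusters with 276 reads, of which the largest held 19 reads, and AGO2 had 20 clusters with 102 reads and a largest of 14. In AGO2, 87.3% of the reads lay in the 3′ segment of the span, and 30 of its 31 replicate 1 clusters lay there too. In AGO1 the reads were split between the middle (46.0%) and the 3′ segment (42.4%). In replicate 1, AGO1 spanned log2 folds of -0.81 to 2.51 around a median of 0.85, the lowest median of the 10 genes, and 5 of 32 clusters were below 0. AGO2 spanned log2 folds of 0.19 to 2.997 around a median of 1.65, and none was below 0. No cluster of either gene reached a −log10 p of 3.

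TNRC6A and TNRC6B, which encode the scaffold proteins bound by argonautes, had 229 and 104 reads in 50 and 24 replicate 2 clusters. In both genes the largest cluster was the one at the very 5′ end of the span, with 18 reads in TNRC6A and 8 in TNRC6B, where another cluster also held 8. TNRC6A had 1 replicate 1 cluster past both thresholds, at 24741328 to 24741410 on the + strand of chromosome 16, with a log2 fold of 3.94 and a −log10 p of 6.80. It began 143 bp from the 5′ end of the span. It overlapped no replicate 2 cluster, and the nearest, at 24741288 to 24741325, held 4 reads. The 18-read cluster lay further upstream, at 24741185 to 24741277, and overlapped another replicate 1 cluster, with a log2 fold of 1.93. TNRC6B reached a log2 fold of 3.36 with a −log10 p of 2.10 in its highest replicate 1 cluster. Its reads lay mostly in the 3′ segment of the span (77.9%).

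MIR17HG, the noncoding host of the miR-17 to miR-92a cluster, had the most replicate 2 reads of the 10 genes and 2 reproducible peaks, both close to its 5′ end. On the + strand of chromosome 13 (hg19), the first peak lay at 92000448 to 92000527, 294 bp from the start of the span, with a log2 fold of 3.81 and a −log10 p of 6.94. The same interval reached 3.23 on the log2 scale in replicate 1, and replicate 2 held 53 reads in the cluster there. The second lay at 92000617 to 92000653, with a log2 fold of 3.19 and a −log10 p of 4.14, a replicate 1 log2 fold of 2.57 and 47 reads in replicate 2. A further replicate 1 cluster at 92001296 to 92001326 passed both thresholds, with a log2 fold of 3.19 and a −log10 p of 3.35, and overlapped a replicate 2 cluster of 34 reads, but is not among the reproducible peaks.

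As in DGCR8, most reads of MIR17HG lay away from its peaks. All 30 replicate 2 clusters held at least 23 reads, and the 5 tallest began between 2129 and 2827 bp from the start of the span. The largest had 134 reads, at 92002562 to 92002660, where replicate 1 reached a log2 fold of 1.37. The clusters of 110, 101 and 70 reads in the same stretch overlapped no replicate 1 cluster, and the cluster of 77 reads overlapped clusters with a log2 fold of at most -0.23. The 3 replicate 1 clusters of MIR17HG with a log2 fold below 0 began between 2861 and 2989 bp from the start, within or just past this stretch. By segments of the span, replicate 2 reads were 42.7% in the 5′ segment, 47.6% in the middle and 9.63% in the 3′ segment. The median replicate 1 log2 fold was 2.53 over the 8 clusters of the 5′ segment and 0.92 over the 8 of the middle, and the 3′ segment had no replicate 1 cluster while replicate 2 had 5. The median over all 16 replicate 1 clusters was 2.33, the highest of the 10 genes. GENCODE v44 gives 49907 bp for the gene in hg38, but the span of 6534 bp cannot be set against it. The peak caller named the clusters by another annotation, in hg19, whose length of the gene was not read.

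**Figure D3:**
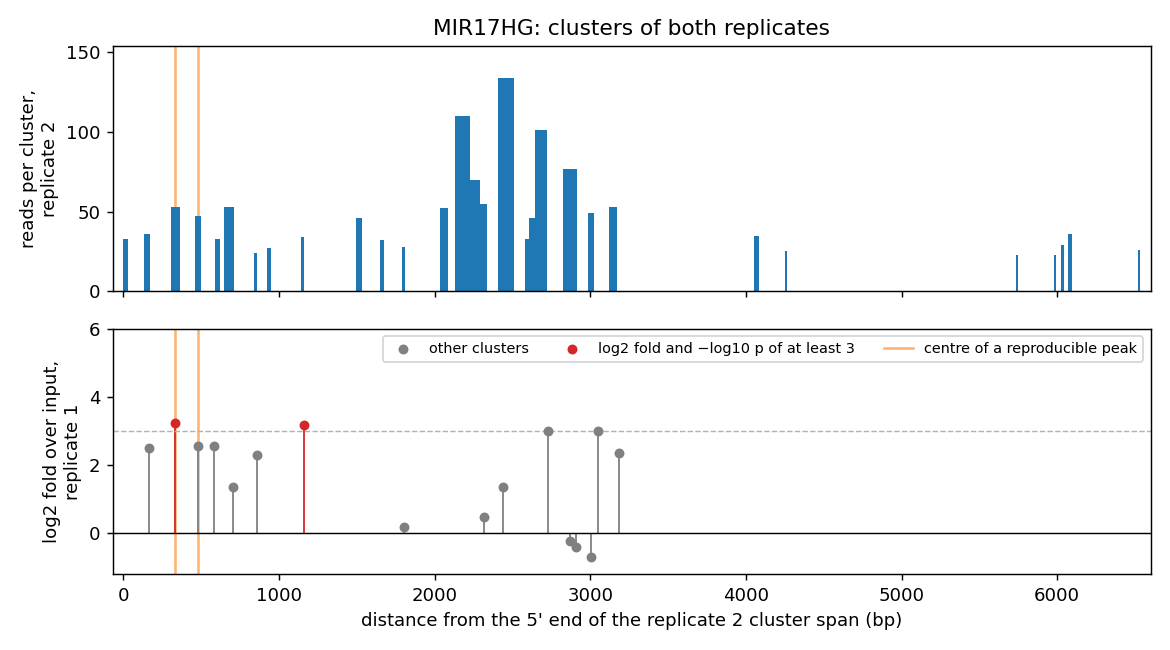
Clusters along MIR17HG by distance in bp from the 5′ end of the span of its replicate 2 clusters, with reads per cluster in replicate 2 (top) and log2 fold over the input in replicate 1 (bottom), where red marks a log2 fold and −log10 p of at least 3 and the dashed line a log2 fold of 3. The 2 reproducible peaks (orange) begin 294 and 463 bp from the 5′ end, and the tallest clusters of replicate 2, up to 134 reads, lie over replicate 1 clusters of low or negative log2 fold or over none.

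MCM7, which encodes a subunit of the replicative helicase and hosts miR-106b, miR-93 and miR-25, had no reproducible peak although 3 of its 20 replicate 1 clusters passed both thresholds, the most of the 10 genes. They lay on the − strand of chromosome 7, and began at most 2882 bp from the 5′ end of a span of 8203 bp. The strongest spans 99696030 to 99696072 and reached a log2 fold of 4.00 and a −log10 p of 7.10. Nearer the 5′ end, the cluster from 99698196 to 99698250 reached 3.33 on the log2 scale (−log10 p 8.44), and the one from 99698620 to 99698633 reached 3.51 (−log10 p 4.73). None of the 3 overlapped a replicate 2 cluster (0 of 3), whereas 14 of the 20 replicate 1 clusters did. At those 14 the median log2 fold was 1.11. The largest replicate 2 cluster, at 99696715 to 99696860 with 89 reads (14.4% of the gene), coincided with replicate 1 clusters whose log2 fold was at most 1.88. All replicate 1 folds of MCM7 were above 0, from 0.35 to 4.00, with a median of 1.26. Reads decreased towards the 3′ end, with 47.2% in the 5′ segment of the span, 33.5% in the middle and 19.3% in the 3′ segment, where replicate 1 had no cluster.

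**Figure D4:**
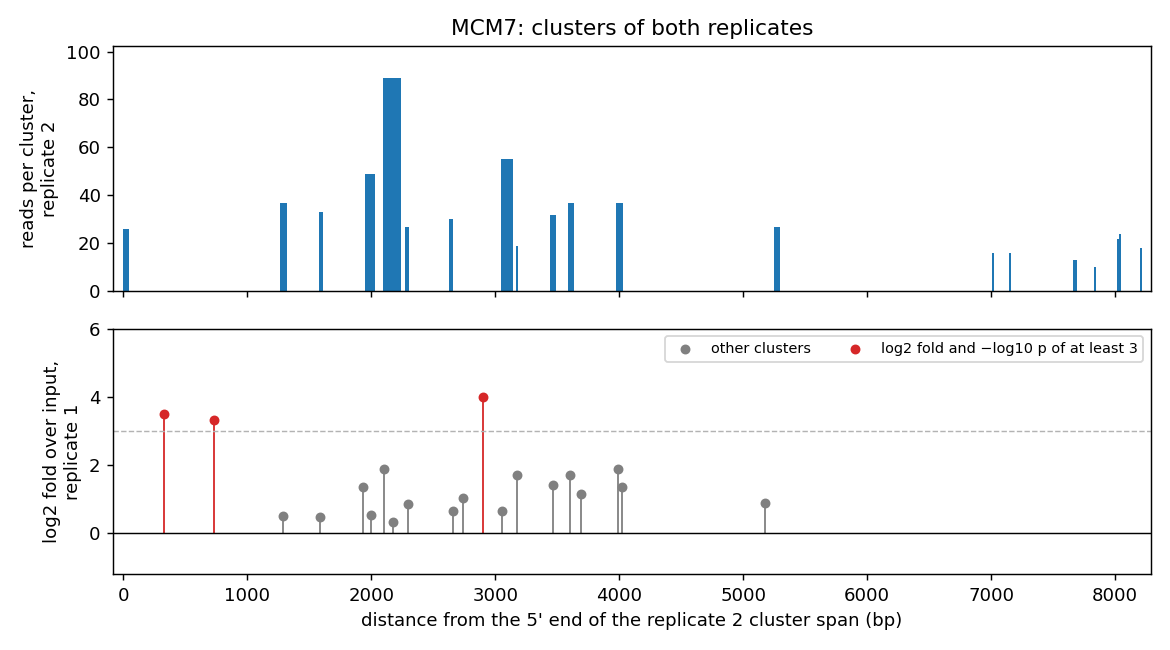
Clusters along MCM7 by distance in bp from the 5′ end of the span of its replicate 2 clusters, with reads per cluster in replicate 2 (top) and log2 fold over the input in replicate 1 (bottom), where red marks a log2 fold and −log10 p of at least 3 and the dashed line a log2 fold of 3. The 3 red clusters, with log2 folds of 3.33 to 4.00, fall in gaps between the replicate 2 clusters.

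Over the 10 genes, 11 of their 304 replicate 1 clusters (3.62%) had a log2 fold and a −log10 p of at least 3, against 5.35% of all replicate 1 clusters, and they fell in 6 genes (60%), against 16.2% of all genes with a replicate 2 cluster, many of which have few clusters. The median log2 fold was 1.19, against 1.51 over all clusters, and 17 clusters (5.59%) had a log2 fold below 0, against 11.4%. A −log10 p of at least 3 was reached by 26 clusters (8.55%), against 9.28%. Of the 11 clusters past both thresholds, 4 overlapped a replicate 2 cluster, a share near the 37.9% of all such clusters. Many values come in steps. The pair of a log2 fold of 1.77 and a −log10 p of 0.461 was shared by 28 of the 304 clusters and by 13859 of all clusters.

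**Figure D5:**
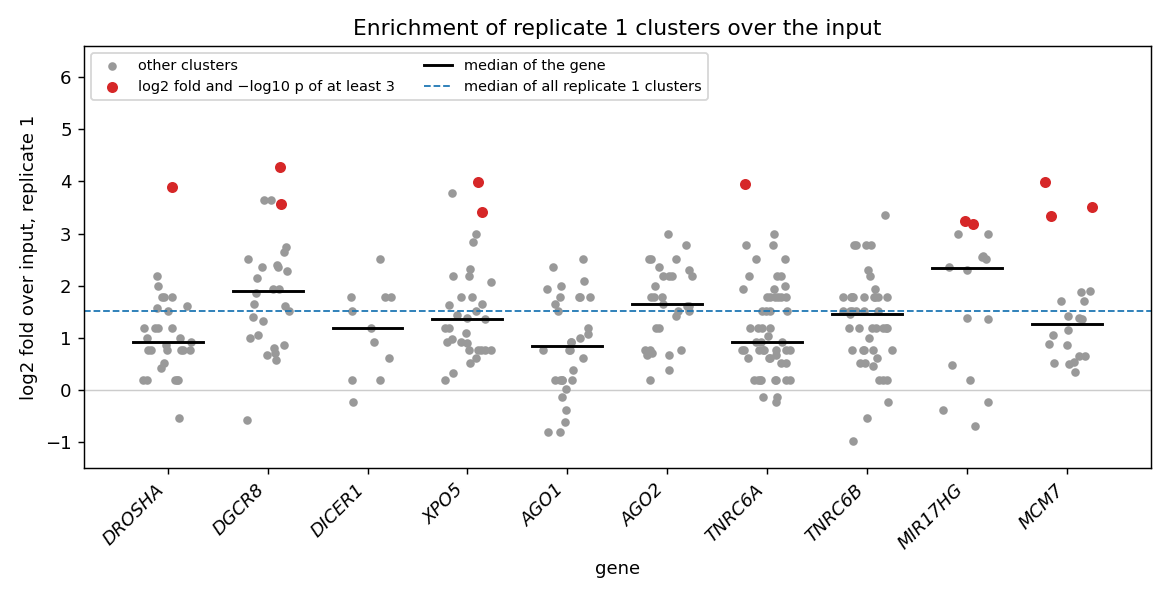
Log2 fold over the input of each replicate 1 cluster in the 10 genes, with 1 point per cluster, the median of each gene as a black bar, clusters with a log2 fold and −log10 p of at least 3 in red, and the median of all replicate 1 clusters (1.51) as a dashed line. Gene medians run from 0.85 in AGO1 to 2.33 in MIR17HG, and MIR17HG, DGCR8 and AGO2 lie above the dashed line.

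The share of clusters found in both replicates was highest in the 3 genes with the most reads. Of the 299 replicate 2 clusters, 92 overlapped a replicate 1 cluster (30.8%, exact Clopper-Pearson 95% interval 25.6 to 36.3%), close to the 31.9% of all replicate 2 clusters. The share was 66.7% in DGCR8, 55.0% in MCM7 and 40.0% in MIR17HG, or 52.7% over these genes, and 23.6% over the 7 others, where it ranged from 18.0% in TNRC6A to 33.3% in TNRC6B. Seen from replicate 1, 96 of 304 clusters overlapped any replicate 2 cluster (31.6%, against 26.3% of all), with 87.5% in MIR17HG, 70.0% in MCM7 and 57.1% in DGCR8. The intervals cover counting error only, and clusters of one gene are not independent.

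Around these genes, the wider microRNA pathway was represented by a list of 51 genes. Replicate 2 clusters were present in 49 of them, with LIN28A and TRIM71 absent, and 10 of the 49 had a reproducible peak (20.4%, against 4.07% of all genes), all 10 among the 31 with at least 100 reads, where the share of all genes was 16.3%. HNRNPA2B1, an RNA-binding protein described as a reader in microRNA processing, had 11 peaks with log2 folds from 3.15 to 5.30 and 4355 reads. HSP90AA1, a chaperone that helps to load argonautes, had 6 peaks with log2 folds from 6.18 to 6.58 and 470 reads. XPO1, a nuclear export receptor, had 4 peaks with log2 folds up to 5.80. MOV10, an RNA helicase found with argonautes, had 2 peaks with log2 folds of 3.53 and 4.87. DDX5, a helicase that works with the Microprocessor, had 1 peak with a log2 fold of 4.29 and 2034 reads. CNOT1, PAN2 and KHSRP had 1 peak each, with log2 folds from 3.63 to 4.11. The median of replicate 2 reads was 147 in the list, 252.5 in the 10 genes and 33 in all genes.

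Other microRNA hosts were represented by 38 genes, 24 of which had replicate 2 clusters and 2 of which had reproducible peaks (8.33%, against 4.07% of all genes). Both were among the 10 with at least 100 reads, a depth at which the share of all genes was 16.3%. SMC4, a condensin subunit that hosts miR-15b and miR-16-2, had 3 peaks with log2 folds from 3.10 to 4.14 and 698 reads in 40 clusters. SREBF2, a regulator of sterol synthesis that hosts miR-33a, had 2 peaks with log2 folds of 3.29 and 4.31 and 327 reads in 40 clusters. Of the 12 noncoding hosts in this list, 4 had replicate 2 clusters, with between 4 reads (MIR210HG) and 127 reads (MIR4435-2HG) each, and none had a reproducible peak. With MIR17HG at 1423 reads, the noncoding hosts examined differed widely in depth.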

How the data were processed

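RBM17 eCLIP was analysed in K562 cells in 2 replicates, numbered as in the sample descriptions, with 1 size-matched input that has no values of its own here. The authors processed reads with the eCLIP-v0.4.0 pipeline, and cutadapt and STAR are named in the submitters' processing notes. The build is hg19, judged from replicate 1 positions up to 249211724 on chromosome 1, beyond its hg38 length of 248956422. The authors compared replicate 1 clusters with the input and deposited the result as −log10 p, limited to 400, and log2 fold. For replicate 2 the authors deposited the p-value of the peak caller, at most 0.05 and not relative to the input, and a name (a label that holds gene and number of reads). Reproducible peaks have a single log2 fold of both replicates and a single −log10 p, which are the authors' values.

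Symbols were matched to identifiers by GENCODE v44. Intervals sharing 1 bp or more of a strand were counted as overlapping, which was tested on simulated intervals. Python 3.11.15, pandas 2.3.3, numpy 2.4.6, scipy 1.17.1 and matplotlib 3.10.9 were used. No test between groups was made. Within the genes, v44 annotates microRNAs on the same strand of DGCR8, DICER1, MIR17HG and MCM7, a processed pseudogene in XPO5 and an unconfirmed transcript in AGO2. The members and lists were chosen with earlier results of these data known, and the genes named from the 2 lists were the up to 6 with the most peaks, then by log2 fold (some list and marker genes are not reported here), while CNOT1, PAN2, KHSRP, LIN28A, TRIM71 and the noncoding hosts were named after their values were seen. The study calls the replicates biological, and the labels do not say whether they came from separate cultures. The alternatives were stricter thresholds, other overlap rules, read minimums and leaving out replicate 2. An identical interval listed under several genes was counted for each.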

Additional observations from a re-analysis of the deposited data

Results flagged for a closer look

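Inside the spans of 3 hosts, replicate 2 also had clusters listed under the identifiers of other Ensembl genes, whose reads are not in the read totals of the 10 transcripts. They do count where replicate 1 clusters are said to overlap any replicate 2 cluster. They are given here because the totals leave them out. All hold more than 3 reads, the smallest number in any replicate 2 cluster, which by itself does not mark them as signal. In the MIR17HG span, 6 such clusters under 5 identifiers held 106 reads, from 7 to 35 each, beginning between 2751 and 3458 bp from the 5′ end. The 2 largest, of 35 and 32 reads at 92003013 to 92003035 and 92003043 to 92003061 (hg19), lie within the MIR17HG cluster of 77 reads, and reads there cannot be told apart between the names. The overlapping replicate 1 clusters had log2 folds of -0.23 and -0.40. Of the other 4, the one of 9 reads overlapped a replicate 1 cluster with a log2 fold of 2.36, which no cluster named MIR17HG overlaps, and the rest overlapped none. In the DGCR8 span, 1 cluster of 14 reads at 20073594 to 20073620 was listed under another identifier, next to the largest DGCR8 cluster, and replicate 1 had no cluster there. These 6 identifiers have no entry in GENCODE v44, so no gene names are given for them. In the MCM7 span, 1 cluster of 4 reads was listed under MIR93, the gene of miR-93 (99691399 to 99691406 on the − strand of chromosome 7), with a peak caller p of 0.0156 and no replicate 1 cluster. That place, 7548 bp from the 5′ end of the span, is in the last of 3 equal segments, where MCM7 had no replicate 1 cluster. No difference between samples was tested for these values.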

How the results depend on the processing

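Of the 23 alternative values, 11 stayed within 1.5 times the reported count. Among these, reproducible peaks in members were 4 instead of 6 with a −log10 p of at least 5, and pathway genes with a peak 7 instead of 10 with a log2 fold of at least 4. With a log2 fold of at least 4, members with a reproducible peak and reproducible peaks in members fell to 0 and replicate 1 clusters past both thresholds to 1. These clusters numbered 6 with a −log10 p of at least 5 and 4 when they had to overlap a replicate 2 cluster of the gene. Without replicate 2, 6 genes had a replicate 1 cluster past both thresholds, and without replicate 1 no fold over the input is given. The share of replicate 2 clusters that overlap replicate 1 was 25.4% for an overlap of at least 50%, 0% on the opposite strand (0 of 299) and 57.8% for a peak caller p of at most 1e-10. The median replicate 1 log2 fold was 1.00 over clusters that overlap a replicate 2 cluster of their gene and 2.69 over those with a −log10 p of at least 3, a filter that keeps high folds by its construction. Replicate 2 reads were 2846 in clusters with a peak caller p of at most 1e-10. The minimum of 100 reads per gene was chosen after seeing the data and left 2 genes with a peak. No paired analysis was possible because the eCLIP replicates are compared with 1 input and form 1 group. The cause of these shifts was not tested. Depth limits what can be said of genes with few reads, DICER1 above all, and intervals cover counting error only.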
